A study of Schizosaccharomyces pombe with 28 samples.

Results

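The ORFs described here are the 400 of 4871 open reading frame (ORF) features of a fission yeast spotted array over which dimethylated lysine 4 of histone H3 (H3K4me2) gave a higher signal in cells without the histone demethylase gene swm1 than in wild type. They were chosen from the values themselves. On each of 2 arrays the log2 ratio of the swm1Δ signal over the wild-type signal, less local background, was set against the median of the array and averaged over the 2 spots of a feature, and an ORF was taken where this value was at or above 0.75 on both arrays. Of the 4862 ORF features measured on both arrays, 418 (8.6%) passed, and 18 of these lay in the clones SPCC306, SPCC4G3 and SPCC364 and were left out. For comparison, 229 ORFs lay at or below -0.75 on both arrays and are called lowered. A gene of the RefSeq annotation was matched to 379 of the 400 raised ORFs, and the other ORFs are given by the name on the array only.

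The study asked which chromatin regions depend on Swm1 and how these regions relate to the chromatin remodelling factors Hrp1 and Hrp3. H3K4me2 and H3K9me2 were measured by ChIP-chip in Schizosaccharomyces pombe, on 2 arrays per mark and region type, each hybridised with material of the swm1Δ strain and of wild type in opposite dyes. Myc-tagged Hrp1 and Hrp3 were each measured on 3 arrays as immunoprecipitate against input, and total H3 was measured on 3 arrays with an antibody to its C-terminus in the strain labelled Hrp1-D, read here as the hrp1 deletion. ORF and intergenic (IGR) features were spotted as separate sets.

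The swm1Δ strain was made by replacing the swm1 ORF with the Clonat resistance marker, and the genotype of the wild type used on the arrays is not given in the sources used here. Array C1 carried swm1Δ in Cy3 and wild type in Cy5, and array C2 had the dyes swapped. The methods state that the 2 arrays came from independent ChIP samples. Neither channel is labelled as input, and total H3 in swm1Δ cells was not analysed here, so nucleosome occupancy and methylation per nucleosome cannot be told apart in these ratios. The Hrp arrays carried the immunoprecipitate in Cy3 by their labels. The H3 arrays carried it in Cy3 on slides 1 and 20 and in Cy5 on slide X.

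Swm1 is a fission yeast homologue of the mammalian amine oxidase LSD1, which removes methyl groups from mono- and dimethylated lysines of histone H3. In yeasts the Set1 complex lays down H3K4 methylation on transcribed genes, with trimethylation near the promoter and dimethylation further into the gene body. Hrp1 and Hrp3 are CHD-type ATPases that move and space nucleosomes, and total H3 follows how densely nucleosomes cover the DNA.

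The start of the coding sequence is shown for the 4 matched raised ORFs with the largest mean ratio. Shown are the first 150 coding bases in the RefSeq assembly ASM294v3, 5′ to 3′, with the start codon in capitals. These bases need not coincide with the spotted ORF fragment, whose position was not used here. ptr2 lies on the minus strand at chrII:3405836-3407692, SPAC186.07c on the minus strand at chrI:5545615-5546613, pxl1 on the plus strand at chrII:2712512-2713884 with 2 coding exons, and wee1 on the plus strand at chrIII:722234-724867.
ptr2: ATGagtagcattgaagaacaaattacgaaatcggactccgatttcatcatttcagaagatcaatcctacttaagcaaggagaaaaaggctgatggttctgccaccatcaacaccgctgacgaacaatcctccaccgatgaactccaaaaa
SPAC186.07c: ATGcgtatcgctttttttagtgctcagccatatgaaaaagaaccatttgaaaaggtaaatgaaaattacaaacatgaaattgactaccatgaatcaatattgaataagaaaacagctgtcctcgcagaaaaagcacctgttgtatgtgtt
pxl1: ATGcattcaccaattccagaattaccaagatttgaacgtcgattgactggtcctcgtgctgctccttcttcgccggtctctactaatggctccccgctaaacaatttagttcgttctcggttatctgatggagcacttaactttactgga
wee1: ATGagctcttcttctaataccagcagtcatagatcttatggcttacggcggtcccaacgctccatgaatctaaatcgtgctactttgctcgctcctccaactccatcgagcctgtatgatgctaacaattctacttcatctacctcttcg

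Upstream windows are shown for the 4 matched raised ORFs whose IGR feature also gave the largest H3K4me2 ratios, because these are the ORFs where the raised signal was also found outside the coding sequence. Each window holds the 250 bases before the annotated gene start of ASM294v3, read towards the gene, and need not coincide with the spotted IGR fragment. The windows lie at chrI:5564652-5564901 (minus strand) for ftm3, chrI:5124266-5124515 (plus strand) for mug108, chrIII:762625-762874 (minus strand) for oca2 and chrII:4502442-4502691 (plus strand) for SPBPB2B2.18. Capitals mark CCAAT in mug108 and oca2. In ftm3 and SPBPB2B2.18 they mark a run of 160 bases that both windows hold on opposite strands.
ftm3: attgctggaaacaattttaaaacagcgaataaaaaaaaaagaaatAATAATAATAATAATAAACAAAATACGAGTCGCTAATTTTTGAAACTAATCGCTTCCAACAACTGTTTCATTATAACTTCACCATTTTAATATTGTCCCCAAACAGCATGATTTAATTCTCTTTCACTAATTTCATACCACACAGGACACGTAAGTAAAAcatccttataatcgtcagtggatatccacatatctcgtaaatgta
mug108: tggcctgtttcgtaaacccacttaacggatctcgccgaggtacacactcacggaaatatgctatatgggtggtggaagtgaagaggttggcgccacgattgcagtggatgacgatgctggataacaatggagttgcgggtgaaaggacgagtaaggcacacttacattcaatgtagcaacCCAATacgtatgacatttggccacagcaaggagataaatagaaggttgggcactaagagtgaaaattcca
oca2: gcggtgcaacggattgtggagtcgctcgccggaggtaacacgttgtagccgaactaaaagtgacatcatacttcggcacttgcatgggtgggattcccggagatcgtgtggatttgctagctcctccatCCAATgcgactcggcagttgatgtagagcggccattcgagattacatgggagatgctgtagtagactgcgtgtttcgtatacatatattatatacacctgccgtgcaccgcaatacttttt
SPBPB2B2.18: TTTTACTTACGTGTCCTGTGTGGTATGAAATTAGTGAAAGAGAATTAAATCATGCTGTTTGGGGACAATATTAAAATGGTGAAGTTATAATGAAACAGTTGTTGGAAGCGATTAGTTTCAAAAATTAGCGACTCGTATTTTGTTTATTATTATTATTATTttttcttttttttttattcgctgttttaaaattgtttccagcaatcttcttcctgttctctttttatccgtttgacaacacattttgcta

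Over the 400 raised ORFs the H3K4me2 log2 ratio had a median of 1.12 on array C1, from 0.75 to 2.41, and of 1.06 on array C2, from 0.75 to 2.22. The arrays therefore gave raised values of like size, with C1 the higher in 234 ORFs and C2 in 166. The SD between the arrays had a median of 0.16 and was largest, at 0.97, for mef1. The mean ratio was at or above 1 for 276 ORFs and at or above 1.5 for 42, and 164 reached 1 on both arrays. The difference between the 2 spots of an ORF on 1 array had a median of 0.11 on C1 and 0.13 on C2. Over all ORF features the 2 arrays correlated with a Pearson r of 0.62 and a Spearman rho of 0.67, which describes features of the same 2 hybridisations and not independent replicates. Across all ORF features limma with Benjamini-Hochberg adjustment at 0.05 called 14.4% higher and 8.52% lower. All 400 raised ORFs were among those called higher, which the selection on the same values fixes and which is no further evidence.

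**Figure D1:**
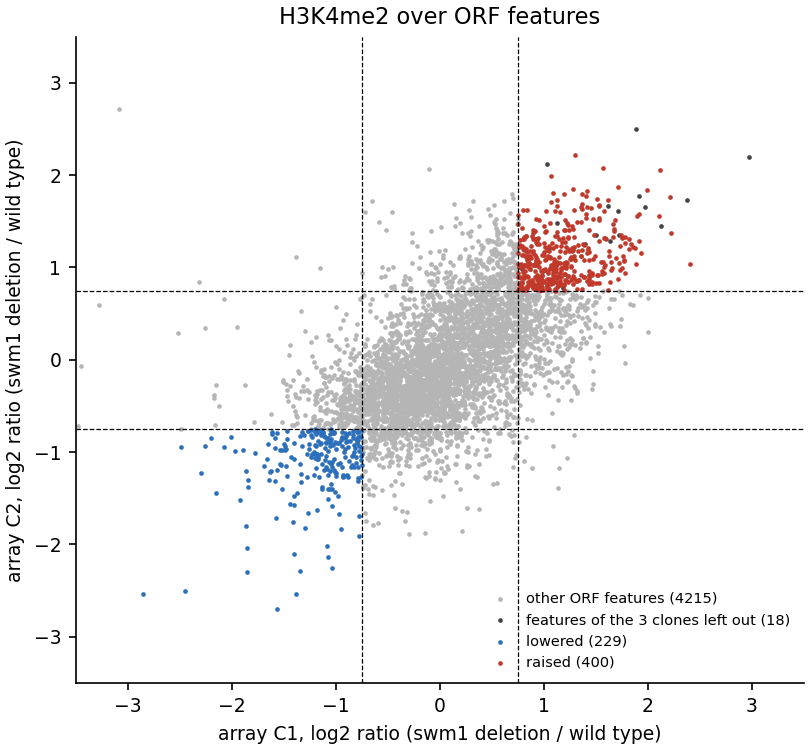
H3K4me2 log2 ratio (swm1Δ over wild type) of each ORF feature on array C1 (x axis) and array C2 (y axis), with the 400 raised ORFs in red, the 229 lowered ORFs in blue, the 18 features of the clones left out in black and the other 4215 in grey. Dashed lines stand at 0.75 and -0.75, the limits of the selection, and 13 features lie outside the axes. The raised ORFs continue the grey cloud without a gap at the limits.

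ptr2, which encodes a peptide transporter of the PTR family, had the largest mean ratio, with 2.12 on C1 and 2.05 on C2. SPAC186.07c, a hydroxyacid dehydrogenase, followed with 2.22 and 1.77. pxl1, the paxillin-like protein of the contractile ring, had 1.99 and 1.84. wee1, the kinase that holds back entry into mitosis, was higher on C1, with 2.10 and 1.56, and the uncharacterized SPCC663.15c was higher on C2, with 1.57 and 2.08. mhk1, a name on the array without a match in the annotation, had 2.23 and 1.37. vps901, a putative guanyl-nucleotide exchange factor, had 1.71 and 1.87, and these values were as close to each other as those of pxl1. met26, the homocysteine methyltransferase of methionine synthesis, had 1.30 and 2.22. SPCC1393.12, uncharacterized and at 327 coding bases the shortest raised ORF, had 1.92 and 1.58. bip1, the HSP70 chaperone of the endoplasmic reticulum, had 1.90 and 1.56. mef1, a mitochondrial translation elongation factor, showed the widest gap, with 2.41 and 1.04. asl1, an O-glucosyl hydrolase, had 1.62 and 1.74.

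At the limit of the selection the values changed without a break. Just inside lay an array name that reads 01-sep (1.10 and 0.75), vma1, a subunit of the vacuolar proton pump (0.75 and 1.47), and spo6, a regulatory subunit of the Spo4 kinase (1.20 and 0.75), whose lower values were 0.7506, 0.7516 and 0.7519. Just outside lay SPAC2C4.18, pus3, a tRNA pseudouridine synthase, and ynd1, a nucleoside diphosphatase, whose lower values were 0.7493, 0.7492 and 0.7491.

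On both arrays the raised ORFs had a low wild-type signal. Among all ORF features the wild-type signal of the raised ORFs stood at a median percentile of 26.8 on C1 and 27.5 on C2, and their swm1Δ signal at 59.5 and 61.0. The lowered ORFs showed the reverse, with a wild-type signal at 62.3 and 58.7 and a swm1Δ signal at 22.9 and 22.8. Spots at or above 1.5 times background made up 99.5% of the spots on both arrays, and leaving out dimmer spots gave 399 raised ORFs. The ratio was formed from these signals, so the percentiles describe the selection and test nothing.

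The deleted gene itself was read as a check of the labels. Over the ORF of swm1 (SPBC146.09c, named lsd1 in the annotation) the H3K4me2 ratio was -5.28 on C1 and -4.48 on C2, the side that a missing ORF in swm1Δ gives. For H3K9me2 it was -1.25 on array B2 and 3.19 on array B1 where B1 is read as its IGR label has it, wild type in Cy3. The ORF label of B1 has swm1Δ in Cy3, and by it the value is -3.19, the side that a missing ORF gives. The reading used here has wild type in Cy3 and puts the deleted gene on the other side. The deposited ratios of B1 run with the reading used here, at a Pearson r of 0.65 over ORF features. The direction of B1 is therefore in doubt. Over the ORF of hrp1 the H3 value in the strain labelled Hrp1-D was 1.06, 1.004 and 0.90 on slides 1, 20 and X, which does not settle that label.

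Raised ORFs were long genes. Their coding length had a median of 1854 bases (379 ORFs), against 1098 for all other ORF features and 702 for the lowered ORFs. A coding sequence over 1000 bases was found in 362 (95.5%) of the raised ORFs, in 55.8% of all other features and in 34.9% of the lowered ORFs, and over 2000 bases in 43.0%, 17.7% and 7.66%. Raised ORFs made up 0.655% of the features with up to 500 coding bases, 1.01% of those over 500 and up to 1000, 6.42% of those up to 1500 and 17.9% of those up to 2000, each class starting above the end of the class before it. Beyond that the share did not go on rising, with 18.2% up to 3000 and 17.2% over 3000 bases. The lowered ORFs had their largest share, 11.6%, in the shortest class. Over all features of a class the median ratio went from -0.45 on C1 and -0.51 on C2 up to 500 bases to 0.47 and 0.43 between 2000 and 3000 bases, so the relation with length was not limited to the ORFs past the limit. The longest raised ORFs were mdn1, the giant ATPase midasin of ribosome assembly (14154 bases, 1.47 and 1.09), and tra2, a phosphatidylinositol kinase-like protein (10968 bases, 1.20 and 1.40). How the length of the spotted fragment enters the ratio was not tested.

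**Figure D2:**
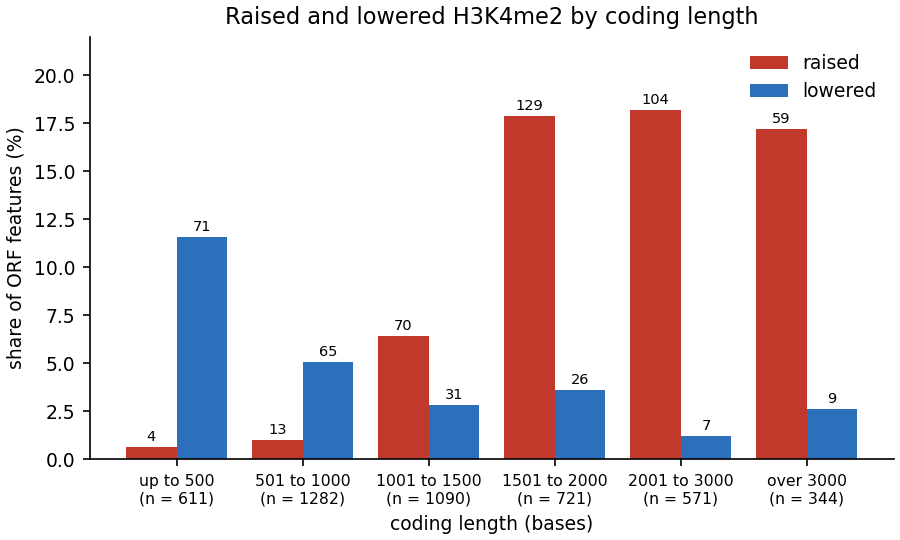
Share of ORF features that were raised (red) or lowered (blue) for H3K4me2 in 6 classes of coding length (x axis, bases), with the number of ORFs above each bar and the number of features in the class below. The raised share is 0.655% in the shortest class and between 17.2% and 18.2% in the 3 longest, and the lowered share is highest, 11.6%, in the shortest.

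Only 4 raised ORFs had up to 500 coding bases, namely SPCC1393.12, mug108, SPBPB2B2.18 and ftm3. All 4 were also among the raised ORFs whose IGR feature reached 0.75 on both arrays. GC content differed little, with a median of 40.64% in the raised ORFs and 39.57% in all other features, and 59.9% of the raised ORFs and 53.1% of the others had a single coding exon. By chromosome, raised ORFs made up 8.06% of the features on I (170 ORFs), 8.63% on II (144) and 7.71% on III (65). Features of the left-out clones stayed among the features counted here but not among the raised ORFs. These clones carry names of chromosome III, so leaving them out lowered the share of III. The order of the chromosomes can therefore not be read from these shares.

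Lists of genes of known function were used to order the raised ORFs, and these lists were drawn up with earlier results of these data known, so their counts describe the ORFs and support no trend. Of 133 measured genes on 14 lists other than histones and ribosomal proteins, 32 were raised. Counts per list are set against 8.6% of all ORF features past the limit.

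In central carbon metabolism, 3 of 13 genes of glycolysis and fermentation were raised. These were pfk1, phosphofructokinase (1.37 on C1 and 1.80 on C2), pgi1, glucose-6-phosphate isomerase (1.35 and 1.12), and pyk1, pyruvate kinase (1.37 and 1.19). pdc102, a pyruvate decarboxylase, was lowered at -1.49 and -0.94. Of 13 genes of the TCA cycle 4 were raised, with fum1, fumarate hydratase, at 1.86 and 1.22, kgd1 and kgd2, subunits of the oxoglutarate dehydrogenase, at 1.36 and 1.49 and at 0.81 and 1.19, and aco1, aconitase, at 1.19 and 1.80. lsc1 is annotated as a cyclin, and without it the list has 12 genes and a median of 0.71. mdh1, malate dehydrogenase, lies in a left-out clone at 1.13 and 1.48. None of the TCA genes was lowered, and the median over the list was 0.80.

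In translation and protein folding, 4 of 13 translation factors were raised. They were tef3, the elongation factor eEF3 of fungi (1.42 and 1.82), gcn20, an AAA-family ATPase (1.58 and 1.01), tif471, the initiation factor eIF4G (1.29 and 1.22), and the initiation helicase sum3 (1.11 and 1.24). The raised array names ef1-b, ef1-b-x2 and tef1-e had no match in the annotation and are not among the 13. Of 16 chaperones only bip1 and mcp60 passed, mcp60 being the HSP60 of mitochondria (1.68 and 1.51), although the list had a median of 0.78. The cytosolic chaperonin genes cct1 to cct8 all lay below the limit on at least 1 array.

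In transport, 4 of 9 genes on a nuclear transport list were raised, and 1 of them, ptr2, is annotated as a peptide transporter. The others were kap123, an importin (1.59 and 1.03), mex67, the mRNA export factor (1.43 and 1.19), and crm1, the export receptor of proteins (0.84 and 1.08). Membrane transporters of inositol and cations were raised in 4 of 8, with trk2, a potassium transporter, at 1.36 and 1.69, itr2 and itr1, myo-inositol transporters, at 1.21 and 1.51 and at 1.13 and 1.73, and hmt1, the vacuolar phytochelatin transporter, at 1.17 and 0.97. Vacuolar sorting genes were raised in 3 of 13, namely sst4, an ESCRT 0 subunit (1.09 and 1.80), vps5 of the retromer (1.44 and 1.41) and vps53 of the GARP complex (1.02 and 1.61). sec31, a COPII coat protein, was raised at 1.29 and 1.12 as 1 of 8 coat genes.

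In the nucleus and at the cell wall, 4 of 10 splicing genes were raised. prp1 of the tri-snRNP had 1.67 and 1.42, the helicase prp16 had 1.58 and 1.32, spp42, the PRP8 homologue, had 1.29 and 1.63, and snu66 had 1.77 and 1.07. bgs1, which makes the linear glucan of the septum, was raised at 1.60 and 1.31 as 1 of 9 glucan synthases. nda3, beta-tubulin, was raised at 1.63 and 1.13 as 1 of 4 tubulin and actin genes.

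No gene of the Set1 and Swm lists was among the raised ORFs. Among 8 genes of the Set1 list, of which spp1 matches a DNA primase subunit by name, 0 were raised or lowered, and set1 itself lies in a left-out clone at 0.48 and 0.90. Among the Swm genes, phf1 (1.73 and 1.35) lies in a left-out clone as well, and lsd2, the swm2 gene, had -0.41 and 0.02. Of the Paf1 complex, which works with RNA polymerase II, prf1 was raised at 1.65 and 0.997 as 1 of 5. Genes of ribosomal proteins and core histones, which are short, were also absent, with 0 raised of 136 genes with names of ribosomal proteins and 0 of 8 core histone genes. The ribosomal list had a median ratio of -0.30 and a median coding length of 447 bases, and 5 of its genes were lowered, 1 of which, rpp1, is annotated as an RNase P subunit.

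**Figure D3:**
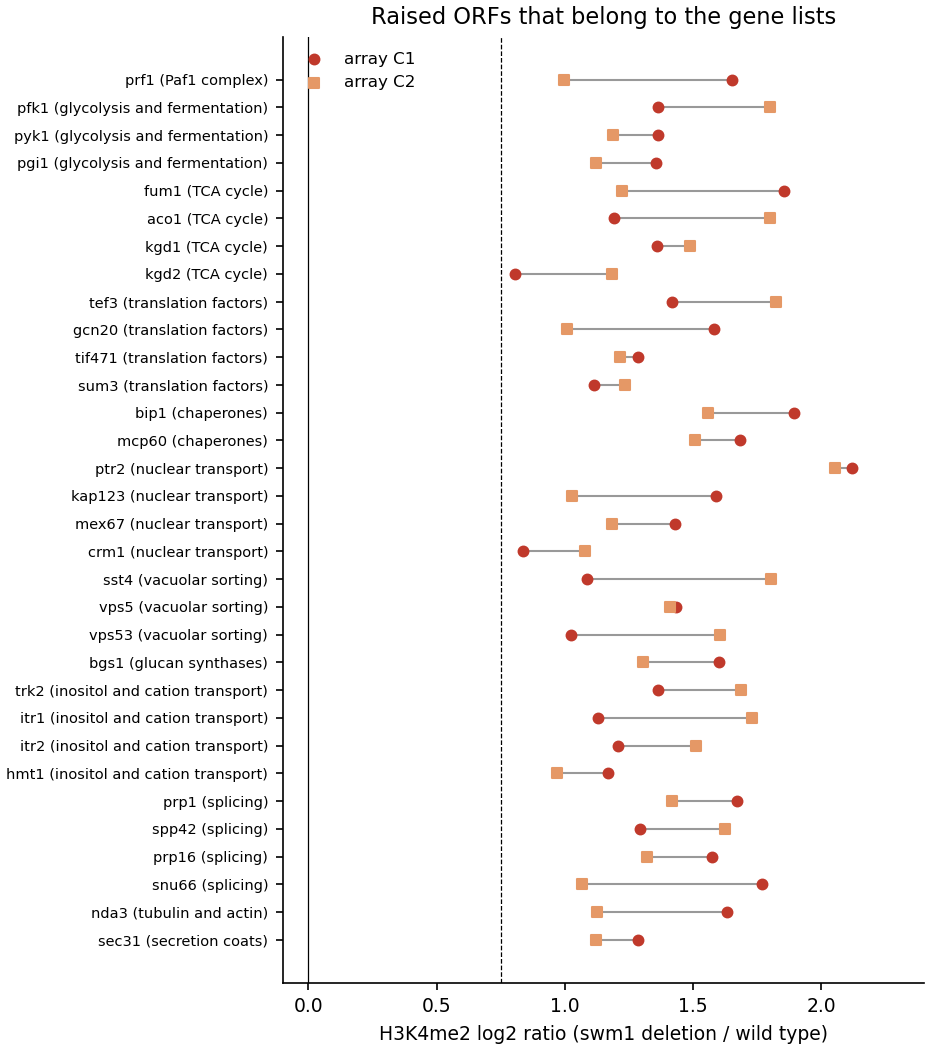
H3K4me2 log2 ratio (x axis, swm1Δ over wild type) of the 32 raised ORFs on the gene lists, with array C1 as a circle and array C2 as a square joined by a line, and the list in parentheses. ptr2 stands on the nuclear transport list by name and is annotated as a peptide transporter. The dashed line at 0.75 is the limit of the selection, which all points pass by choice.

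Some raised ORFs were neighbours. Of the 379 placed on the chromosomes, 106 lay in 50 runs of directly adjacent raised ORFs, 45 of them runs of 2, 4 of 3 and 1 of 4. The like share for all ORF features or for the lowered ORFs was not computed, so these counts only describe the raised ORFs. The run of 4 lay on chromosome I and held eme1, a Holliday junction resolvase subunit (0.92 and 0.76), glt1, glutamate synthase (0.80 and 1.62), the transporter SPAPB1E7.08c (0.79 and 1.42) and ogm2, a protein O-mannosyltransferase (0.81 and 1.14). Among the runs of 3, the 1 with the largest mean values, on chromosome II, held vps901, asn2, an asparagine synthase (1.26 and 1.11), and pxl1. The annotated spans of vps901 and asn2 overlap on opposite strands, and the arrays do not resolve strand. The other runs of 3 were elo1, trk2 and tra2 on I, dma1, imt3 and sec3 on I, and trp1322, fyu1 and lap2 on III. Annotated spans on opposite strands also overlap for fyu1 and lap2 and in several runs of 2, such as bbl1 with ptr2 and prp1 with ofd1. Whether the spots of such neighbours read the same chromatin was not tested. Coding sequence shared with another gene over at least 60 bases was found for 3 matched raised ORFs, Tf2-1, ftm3 and SPBPB2B2.18, whose spots can pick up signal of the copies. The raised ORFs without a match in the annotation were not searched.

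Total H3 was measured on other slides in another strain and was not used in the selection. Its values were deposited as log2 ratios without a stated numerator, and were set to a median of 0 on each array. The 3 arrays correlated with each other (Pearson r from 0.44 to 0.59 over all ORF features) as deposited, although slide X had the dyes swapped, so they were not turned. Over the 388 raised ORFs with a value the median was 0.36, 0.36 and 0.42 on slides 1, 20 and X, and over the lowered ORFs it was -0.38, -0.43 and -0.45. The groups overlapped widely on each array, with the lower quartile of the raised ORFs at -0.27, -0.14 and -0.18. A value above 0 on all 3 arrays was found for 167 (43.0%) of the raised ORFs against 27.1% of all ORF features, and below 0 on all 3 for 36 (9.28%) against 27.3%.

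By limma with Benjamini-Hochberg adjustment at 0.05, 34 (8.76%) of the raised ORFs were called higher for H3, where 4.89% of all ORF features were. The call was lower for 5 (1.29%), where 6.26% of all features were. Of 213 lowered ORFs, 6 (2.82%) were called higher and 27 (12.7%) lower. The raised ORFs stood above the other features in each class of coding length, with median H3 values of 0.43 against -0.57 up to 500 bases (4 raised ORFs), 0.65 against -0.06 up to 1000 (13), 0.38 against 0.08 up to 1500 (68), 0.41 against 0.12 up to 2000 (127), 0.27 against -0.01 up to 3000 (102) and 0.14 against -0.14 over 3000 (58). The calls by class were closer in some classes. Called higher were 10.3% of raised ORFs against 5.35% of all features up to 1500 bases, and 11.0% against 7.44% up to 2000. The shares were 5.88% against 4.13% up to 3000 and 10.3% against 5.11% over 3000. In the classes up to 500 and up to 1000 bases 0 raised ORFs were called, against 2.97% and 4.1% of all features. These are shares and medians over genes of the same 3 arrays and carry no test of the group. The calls depended on slide 20. Without it 0 raised ORFs were called in either direction, without slide X 13 were called higher, and with slide X turned by its label 0 were.

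**Figure D4:**
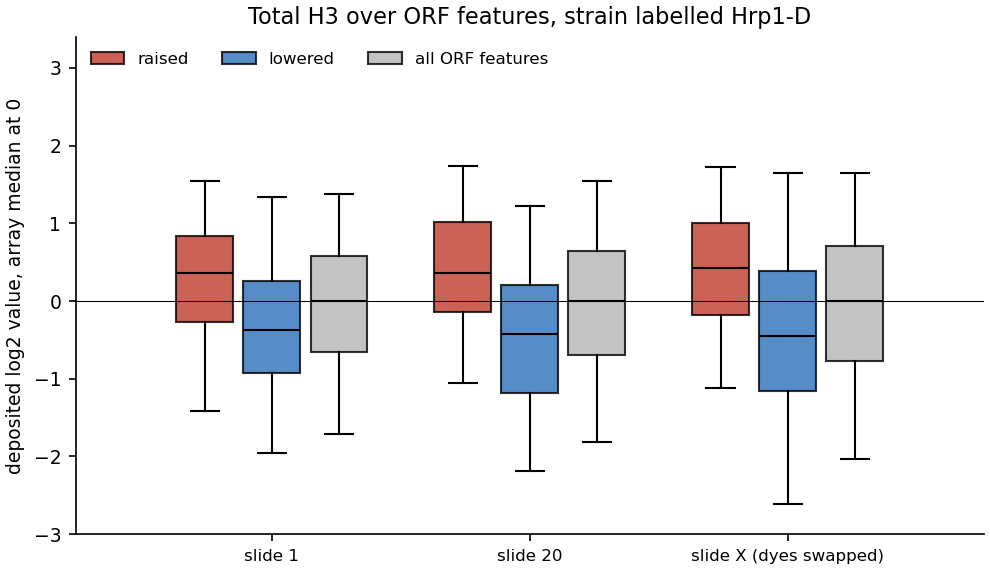
Deposited log2 value of total H3 in the strain labelled Hrp1-D, with the median of each array at 0 (y axis), on slides 1, 20 and X (x axis) for raised, lowered and all ORF features. Boxes span the quartiles with a line at the median, and whiskers run from the 5th to the 95th percentile. The median of the raised ORFs is 0.36, 0.36 and 0.42, above that of the lowered ORFs on each slide, and the boxes overlap.

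Among the raised ORFs called higher, Tf2-1, a retrotransposon of the Tf2 type, had 2.39, 3.18 and 1.76 on slides 1, 20 and X (mean 2.44 ± 0.71, SD, n = 3, limma adjusted p = 0.01702). sec5, an exocyst subunit, had 2.18, 2.48 and 2.01 (mean 2.22 ± 0.24, limma adjusted p = 0.01585). spp41, a transcriptional regulatory protein, had 2.68, 2.10 and 1.86 (mean 2.21 ± 0.42, limma adjusted p = 0.0159). but2, of the But2 family, and SPBC16E9.02c, a CUE domain protein, had 2.24, 1.88 and 2.18 and 1.78, 2.31 and 1.77. Each slide put these 5 above 1.5, and all lost the call without slide 20. Tf2-1 shares coding sequence with other Tf2 elements, which these spots cannot tell apart. Of the listed genes, sec31 (mean 1.75), kap123 (1.47), hmt1 (1.38) and ptr2 (1.21) were called higher, and ptr2, the ORF with the largest H3K4me2 ratio, had 1.03, 1.25 and 1.35. The raised ORFs called lower were lin1, a U5 snRNP subunit (-2.22, -2.01 and -2.55), nfs1, the cysteine desulfurase (-2.40, -2.60 and -1.56), nup120, a nucleoporin (-3.62, -1.63 and -0.88), pob1, a Boi family protein (-1.46, -1.13 and -2.72), and sif2, a Sad1-interacting factor (-1.93, -1.61 and -0.82). All 5 lost the call without slide 20, nup120 and sif2 also without slide 1, and pob1 also without slide X. Values at or below -3 on at least 1 slide occurred for 7 raised ORFs and on all slides for 0, as for wee1, with -6.22 on slide 1, 0.04 on slide 20 and 0.93 on slide X.

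Over the IGR features of the raised ORFs, H3 was called higher for 85 (23.5%) of 362 and lower for 42 (11.6%), where 16.8% and 17.0% of all IGR features were. With slide X turned by its label, 0 of all IGR features were called. The largest values were those of eme1 (3.14, 3.53 and 3.01), ftm3 (2.89, 3.09 and 3.01), knh3 (3.65, 2.06 and 2.60), the unmatched SPAC1348.03 (2.72, 2.48 and 3.01) and tco1, an RTA1-like protein (2.97, 2.51 and 2.30). All of them lay above 2 on each slide. Among those called lower, the largest in size were adg3, a beta-glucosidase (-5.13, -5.29 and -5.29), nak1, a PAK-like kinase (-4.65 and -5.57 on slides 20 and X, without a value on slide 1), trk2 (-2.78, -1.86 and -2.97), apm1, an AP-1 adaptor subunit (-2.48, -2.72 and -2.32), and bbl1, an enzyme of phospholipid synthesis (-3.45, -0.99 and -0.98). Only in bbl1 did 1 slide stand far below the others.

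Binding of Hrp1 and Hrp3 was also measured apart from the selection. An ORF was called bound where the median of its percentile ranks on the 3 arrays reached 0.9 for Hrp1 or 0.92 for Hrp3. The methods name a median percentile ranking, which was applied here to the array means of labelled ratios with fixed limits. Read by their labels, the arrays of each protein do not run the same way. Over all ORF features Hrp1 on slide 2 correlated with the array labelled A260E at a Pearson r of -0.12 and with slide 3 at -0.16, while the latter pair reached 0.53. Hrp3 on slide 1 correlated with slides 2 and 3 at -0.19 and -0.24, while these reached 0.67. The deposited values of the Hrp arrays are not ratios and follow 1 dye. They rank with Cy5, labelled input, on the opposing arrays, with a Spearman rho of at least 0.970 over ORF and IGR arrays, and with Cy3, labelled immunoprecipitate, on the other arrays, with a rho of at least 0.968. Which dye held the immunoprecipitate on the opposing arrays is therefore in doubt. The shares of bound features are given by the labels and also with the 1 opposing array turned. Other values of these arrays are as labelled unless stated. Gene names on the Hrp and H3 arrays rest on the position of the spot, and some names in the Hrp files differ.

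Hrp1 was bound at 24 (6.0%) of the 400 raised ORFs, where 4.33% of all ORF features were, and Hrp3 at 28 (7.0%), where 4.25% were. With the opposing array turned, the counts were 32 (8.0%) against 4.83% and 35 (8.75%) against 5.28%. The median rank of the raised ORFs was 0.57 for Hrp1 and 0.63 for Hrp3, against 0.50 for all features in both. By array, the median log2 ratio of the raised ORFs was 0.10, -0.13 and 0.13 for Hrp1 on the A260E array and slides 2 and 3, and -0.19, 0.44 and 0.18 for Hrp3 on slides 1 to 3. The raised ORFs thus lay above the array median on the arrays that run together and below it on the opposing array. As labelled, limma called 0 of all ORF features for either protein, with 311 features at an unadjusted p under 0.05 for Hrp1 and 284 for Hrp3. With the opposing array turned it called 0 higher and 8 lower for Hrp1, and 4 higher and 8 lower for Hrp3. Without the opposing array it called 123 higher and 203 lower for Hrp1, and 304 higher and 92 lower for Hrp3. The 0 calls thus depend on the array whose direction is in doubt. Leaving out 1 array moved the count of bound raised ORFs between 6 and 27 for Hrp1 and between 0 and 34 for Hrp3.

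**Figure D5:**
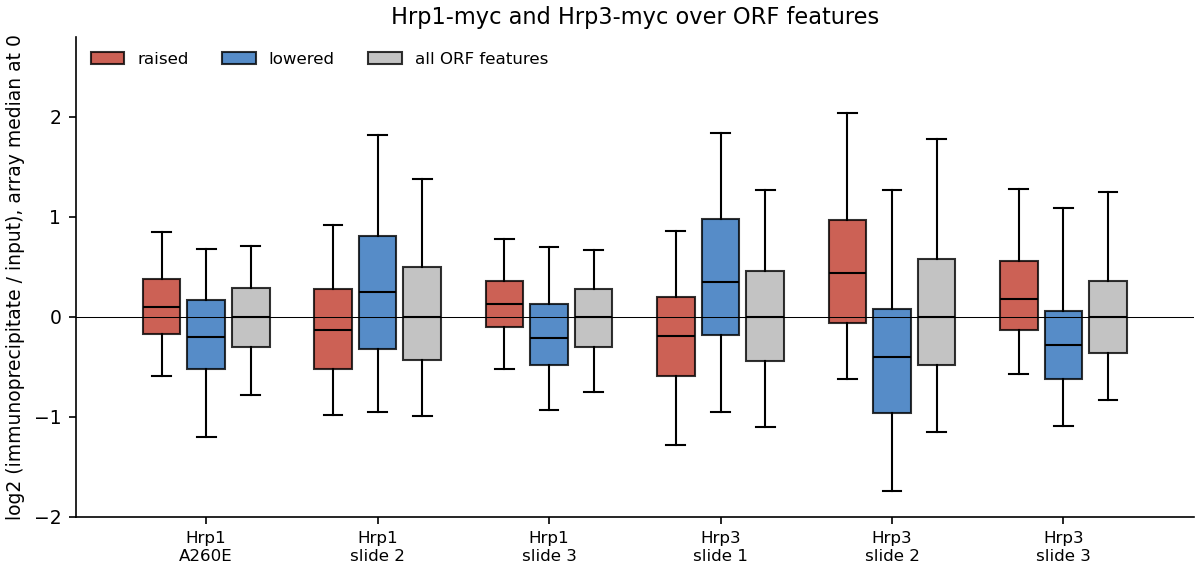
log2 ratio of Hrp1-myc or Hrp3-myc immunoprecipitate over input, with the median of each array at 0 (y axis), on the 3 arrays of each protein (x axis) for raised, lowered and all ORF features, with directions as labelled. Boxes span the quartiles with a line at the median, and whiskers run from the 5th to the 95th percentile. The median of the raised ORFs is above 0 on 4 arrays and below 0 on Hrp1 slide 2 and Hrp3 slide 1.

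Of the Hrp1-bound raised ORFs 15 of 24 lay above the median of each of the 3 arrays, and of the Hrp3-bound ones 8 of 28. With the opposing array below its median were 8 and 20. Among the 5 Hrp1-bound ORFs with the largest mean as labelled, SPAC186.07c had ratios of 2.72 on the A260E array, 1.76 on slide 2 and 0.69 on slide 3. pyk1 had 1.54, 1.95 and 1.62, and irs1, the isoleucine tRNA ligase, had 0.56, 2.14 and 0.78. bip1 had 1.28, 0.25 and 1.17, and ef1-b, an array name without a match, had 1.44, 0.69 and 1.06. The order of the means depended on the opposing array. With it turned, the largest means among the same 24 were those of SPBC17D1.08 (0.91), lys1, an enzyme of lysine synthesis (0.89), and gcn20 (0.82), and irs1 fell to -0.27. For Hrp3, pyk1 had -0.07 on slide 1, 2.47 on slide 2 and 2.19 on slide 3, rsv2, a transcription factor, had 0.00, 2.60 and 1.70, and sum3 had -0.62, 2.71 and 1.64. The unmatched names tef1-e (-0.92, 2.28 and 2.55) and ask2 (0.05, 2.28 and 1.502) were likewise lower on slide 1 than on the other slides. With slide 1 turned, the largest means among the same 28 were those of asl1 (2.23), mex67 (2.08) and tef1-e (1.91). Both proteins were bound at 12 raised ORFs, 50% of the Hrp1-bound and 42.9% of the Hrp3-bound ones, and over all ORF features the shares were 34.6% and 35.3%. They included pyk1, pgi1, bip1, mex67, irs1, but2, asl1 and elo1. The unmatched names ef1-b and ef1-b-x2 were also among them and are counted as separate features. Whether these names read the same gene was not tested. Of the 39 raised ORFs called for H3, 3 (7.69%) were bound by Hrp1 or Hrp3, as were 40 (10%) of all raised ORFs.

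Over IGR features, Hrp1 was bound at 21 (5.79%) of 363 raised ORFs, where 4.68% of all IGR features were, and Hrp3, with a limit of 0.94, at 13 (3.58%), where 2.48% were. With the opposing array turned these became 37 (10.2%) against 5.71% and 15 (4.13%) against 3.39%. As labelled, the Hrp1-bound IGR features with the largest means belonged to mcp60 (1.04, 1.10 and 1.03 on slides 1, 2 and the A260E array), prp1 (1.11, 0.86 and 0.73), irs1 (1.57, 0.66 and 0.47), fhl1, a forkhead factor of ribosomal protein genes (0.91, 0.93 and 0.70), and swt1, an RNA endoribonuclease (1.47, 0.40 and 0.67). Those of Hrp3, given for the array without a slide number and slides 2 and 3, belonged to cdc48, the AAA ATPase of protein degradation (0.76, 4.58 and 1.06), spp41 (-0.86, 4.04 and 1.29), tts1 (1.59, 2.71 and -0.02), SPBC83.16c (-0.97, 2.30 and 1.67) and psu1 (-0.19, 1.75 and 1.40). These orders depended on the opposing array, slide 1 for Hrp1 and the array without a number for Hrp3. With it turned, irs1 and swt1 for Hrp1 and tts1 for Hrp3 lost the call, the largest Hrp1 means among the same 21 were those of pyp1 (1.28), knh3 (1.04) and ftm3 (1.001), and mcp60 fell to 0.36. For Hrp3 knh3 (2.17) and spp41 (2.06) then stood above cdc48 (1.63).

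The IGR features of the raised ORFs were not raised as a group for H3K4me2. They lie on the same 2 slides, so their values are given as a description. For C1 only 4963 IGR spots were read, against 9926 for C2. Over all IGR features the 2 arrays correlated at a Pearson r of 0.21, or 0.40 as deposited, against 0.62 over ORF features. The IGR values are therefore less certain, and a contrast between ORF and IGR regions was not tested. The median was 0.00 on C1 and 0.02 on C2, and 28.4% of 363 lay above 0 on both arrays, where 29.6% of all IGR features did, and 25.9% below 0 on both, where 29.7% did. At or above 0.75 on both arrays were 9 (2.48%), where 3.43% of all IGR features were, and 0 lay at or below -0.75 on both, where 1.21% did. limma called 0 of all IGR features, with 589 at an unadjusted p under 0.05. With normexp and loess it called 252 higher and 111 lower, and with the deposited ratios 234 and 86. The 9 were ftm3, a transmembrane protein (2.48 and 1.58), mug108 (1.96 and 1.77), oca2, a protein kinase (1.46 and 1.83), SPBPB2B2.18 (1.78 and 1.32), SPCC1393.12 (1.49 and 1.51), adg2 (1.02 and 1.30), mde10, an ADAM family peptidase (1.32 and 0.99), the silencing factor clr5 (1.07 and 0.95) and the unmatched SPAC1348.03 (1.99 and 1.88). ftm3 and SPBPB2B2.18 share 160 bases of their windows, and which copy gave the signal was not tested.

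H3K9me2 showed no call for the raised ORFs. limma called 0 of all ORF features in either direction (0.0%), with a smallest adjusted p of 0.9 and 221 features at an unadjusted p under 0.05, and 0 of all IGR features, with 313. The raised ORFs had a median of -0.48 on B1, from -8.60 to 9.67, and of 0.02 on B2. With swm1Δ in Cy3, as the ORF label of B1 has it, the median on B1 is 0.48, and limma again called 0 of all ORF features. Values on B2 lay closer together, with quartiles of -0.49 and 0.60, and the 2 arrays correlated at a Pearson r of 0.03 over all ORF features.

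The 250 bases upstream of the raised ORFs were searched on both strands for 4 motifs. CCAAT was found for 128 (33.8%) of 379 raised ORFs and for 35.2% of all genes on the arrays. TATAAA was found for 153 (40.4%) against 44.6%, TGACGT, the core that Atf1 and Pcr1 bind, for 25 (6.6%) against 5.68%, and CAGTCACA, the HomolD box of ribosomal protein genes, for 5 (1.32%) against 2.42%. Neither strand overlap nor spacing was taken into account, and these are counts of letters, not of bound sites.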

How the data were processed

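Schizosaccharomyces pombe ORF and IGR spotted arrays of 2 colours were read from 28 samples, of which the 2 expression arrays were not used, since no table used here names their features. The deposited scanner tables list, per spot and dye, the uncorrected intensity of signal and of local background as medians. The authors deposited log2 ratios per spot for methylation and H3, Lowess normalized in GeneSpring by the methods, with a floor at a ratio of 0.01, and log10 values for the Hrp arrays that follow Cy5 on the opposing arrays and Cy3 on the others. These deposited log2 ratios were used for H3 and for H3K9me2 in IGR regions, and the other values were computed from the scanner intensities, read through 26 columns of deposited tables where those were needed. The number of arrays limits precision. The builds used by the authors are not given in the sources used here.

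The log2 ratio of background-subtracted signals was taken per spot, the array median subtracted and spots averaged. limma 3.58.1 in R 4.3.3 tested array means against 0 with Benjamini-Hochberg adjustment over all features at 0.05, with 1 residual degree of freedom for 2 arrays. It was also run on simulated arrays with a spread drawn from its own fit and no array or dye effect. That run cannot show how the calls hold where an array runs against the others. Python 3.11.15, numpy 2.4.6, pandas 2.3.3 and matplotlib 3.10.9 were used otherwise. Each spot took its name from its position, with the names of H3K4me2 array C1 for ORF and C2 for IGR features. In their own files 976 of 11834 spots on each Hrp ORF array carry another name, as do all 10342 on each Hrp IGR array. Whether these names stand for the same sequences was not tested. The deposited H3 values were also joined by position, without a check of names. Array names were matched to RefSeq ASM294v3 for 4633 features and not for 238, and the assembly gave names, order, lengths and sequences only. For both parts of array B1 wild type was taken as Cy3, against the label of its ORF part and against the side expected for the deleted gene. Alternatives were normexp with an offset of 50 and loess, deposited values, spots at or above 1.5 times background, a limit of 1.0, a mean rank, other dye directions and leaving out each array.

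The raised ORFs and the gene lists were chosen with earlier results of these data known. Named are the 12 raised ORFs with the largest mean, the 3 on each side of the limit, members of the lists, ORFs called or bound in another readout (up to 8, otherwise the 5 with the largest mean) and the 5 longest runs. The longest and shortest ORFs, the ORFs bound by both Hrp proteins, the ORFs that lead with an Hrp array turned and the low H3 value of wee1 were chosen after their values were seen.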

Additional observations from a re-analysis of the deposited data

How the results depend on the processing

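The raised ORFs numbered 164 at a limit of 1.0, and between 718 and 810 where a single array decided. With normexp and loess there were 313, of which 288 were among the 400, and with the deposited ratios 325, of which 302 were. Without the 3 matched ORFs found to share sequence with other genes, an alternative chosen after seeing the data, there were 397. These include the unmatched ORFs, which were not searched. Their median coding length stayed between 1812 and 1932 bases under the other limits and normalizations tried. Calls of H3K4me2 over IGR features went from 0 to 363 with normexp and loess and to 320 with the deposited ratios, and the cause was not tested. Calls of H3 over ORFs went from 515 to 0 with slide X turned by its label and lay between 20 and 498 without 1 array. For the raised ORFs called higher these were 0 and between 0 and 27, and for those called lower 0 and between 0 and 5. With slide X turned, the mean of pob1 changed sign to 0.0452.

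Bound ORF features of Hrp1 went from 211 to 46 with the mean rank, to 340 with the deposited values and to between 77 and 245 without 1 array, and of Hrp3 from 207 to 20, 325 and between 31 and 275. For IGR features the counts went from 232 to 35, 428 and between 49 and 283 for Hrp1, and from 123 to 6, 253 and between 11 and 153 for Hrp3. Among the raised ORFs the same settings gave 6, 46 and between 6 and 27 for Hrp1, against 24, and 1, 57 and between 0 and 34 for Hrp3, against 28. Over their IGR features they gave 6, 46 and between 5 and 30 for Hrp1, against 21, and 0, 32 and between 1 and 20 for Hrp3, against 13. Only some of these ORFs were the same, with the deposited values sharing 4 of the 24, 15 of the 28, 6 of the 21 and 3 of the 13. Without the A260E array 5 of the 24 Hrp1-bound ORFs remained, and without slide 2 0 of the 28 Hrp3-bound ORFs did. Turning the opposing array, chosen after seeing the data, gave 37 for Hrp1 over IGR features.

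No paired analysis was possible because each array held both strains, or immunoprecipitate and input, and its ratio was tested against 0 without a group to pair with. This concerns a pairing between arrays. The samples hybridised to the same array were already paired in its ratio. Fits of 2 arrays could not be repeated without 1 of them, since no residual degree of freedom was left. The expression arrays and protein sequences were not analysed here.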
